A study of Mus musculus with 36 samples.

Results

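The 9 genes described here are Pogz, the gene deleted in this series, and 8 genes that encode HP1 proteins and other nuclear partners of POGZ: Cbx1, Cbx3, Cbx5, Adnp, Adnp2, Chd4, Mad2l2 and Psip1. They were picked by gene name from what was known of POGZ binding, and all 9 are among the 24421 genes listed in each tissue. Earlier results of these data were known when they were chosen. RNA-seq of poly(A) RNA was made from the cerebellum and the hippocampus of 18 adult C57Bl/6 mice, 3 males and 3 females of each of 3 genotypes. Control mice were Pogzfl/fl and carried no Cre, cKO+/- mice were NesCre/+; Pogzfl/+, and cKO-/- mice were NesCre/+; Pogzfl/fl, so the controls and the cKO-/- mice shared the floxed alleles, while every mutant mouse also carried the Nestin-driven Cre. Against controls the effect of Cre and that of the deletion therefore cannot be told apart, while cKO-/- and cKO+/- mice both carried Cre. Nestin-Cre acts mainly in the neural lineage, so that microglia and other cells of the tissue outside it can keep Pogz.

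POGZ is a zinc finger protein derived from a pogo-type transposase, and mutations of its gene are a known cause of intellectual disability and autism. It binds HP1 proteins, the readers of methylated lysine 9 of histone H3 in silent chromatin, and was described as a factor that releases HP1α from mitotic chromosomes. HP1β, HP1γ and HP1α are made from Cbx1, Cbx3 and Cbx5. ADNP is a homeodomain protein that forms a repressive complex with HP1 and the remodelling ATPase CHD4, CHD4 is also the motor of the NuRD deacetylase complex, and ADNP2 is the paralogue of ADNP. MAD2L2 is a small HORMA-domain adaptor of translesion polymerase zeta and of DNA break repair, and PSIP1 (LEDGF) tethers partner proteins to chromatin marked by methylated lysine 36 of histone H3.

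How well the counts can measure each gene differed, and the HP1 genes show why. Reads were 43 bases long and came in pairs, while the windows below were looked up singly. How often the mate would place a read that fits several places was not tested. Of the 2139 different 43-base windows of the Cbx3 transcripts of GENCODE, 74.1% also occurred elsewhere in the NCBIM37 mouse genome, against 2.22% for Cbx1 and 0.299% for Cbx5. The median Cbx3 window had 3 other places and the most repeated had 13. The coding window of Cbx3 with the most other places, 8, lies in exon 3 of transcript Cbx3-001 at chr6:51425259-51425301 of NCBIM37, on the plus strand, at bases 54 to 96 of the coding sequence.

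Cbx3 window with 8 other places: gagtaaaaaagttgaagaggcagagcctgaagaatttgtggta

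The 3 HP1 genes themselves can be told apart at this read length. The stretch below is the one where the coding sequence of Cbx3 was most like both others, and capitals mark the 29 of 43 bases that all 3 genes share. Cbx1 and Cbx5 each differed from Cbx3 at 9 of the 43 bases. These windows lie in exon 3 of Cbx1-001 (chr11:96662753-96662795, plus strand), exon 4 of Cbx3-001 (chr6:51428447-51428489, plus strand) and exon 3 of Cbx5-001 (chr15:103036057-103036099, minus strand) of NCBIM37.

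Cbx1: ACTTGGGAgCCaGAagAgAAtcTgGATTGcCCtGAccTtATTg

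Cbx3: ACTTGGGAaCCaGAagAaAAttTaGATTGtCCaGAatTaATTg

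Cbx5: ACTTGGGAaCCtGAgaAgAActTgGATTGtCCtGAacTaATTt

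Adnp was limited in another way. In the annotation of the count tables, 4414 of the 5128 exonic bases of Adnp, 86.1%, are also exonic in the readthrough gene Dpm1-adnp, which leaves 714 bases that belong to Adnp alone. The Adnp row held 20 to 128 counts in the cerebellum and 28 to 128 in 17 hippocampal libraries, and the Dpm1-adnp row held 1 to 8 and 3 to 15. How the counting treated reads in shared bases is not given in the sources used here, so the Adnp row may not be the full level of Adnp RNA. Pogz, Adnp2 and Mad2l2 had neither windows elsewhere nor shared bases, Chd4 had 0.798% and Psip1 13.2% of windows elsewhere.

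**Figure D1:**
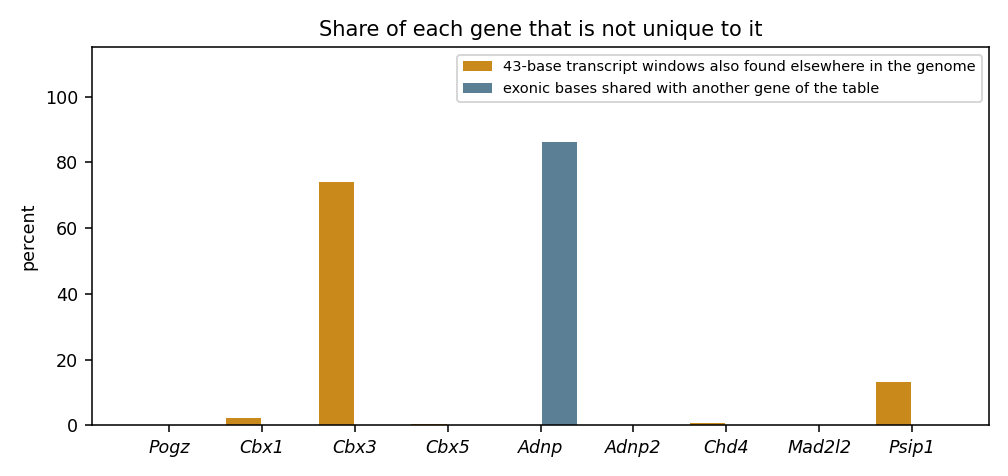
Percent of each gene that is not unique to it: orange bars give the share of 43-base transcript windows found elsewhere in NCBIM37, blue bars the share of exonic bases that another gene of the count table also holds. Cbx3 (74.1%) and Psip1 (13.2%) stand out for windows and Adnp (86.1%) for shared bases.

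Library totals ran from 21421850 to 32544929 counts in the cerebellum and from 17609321 to 45544188 in the hippocampus. Marker genes followed the tissue labels, with 7 cerebellum markers summing to 7008 to 8987 CPM (counts scaled to the size of the library) in control cerebella and 14.0 to 402 CPM in control hippocampi. The median of these control hippocampi was 20.7 CPM, so the highest value lay far above it. The cKO-/- hippocampal library of Sample_1160 stood apart: all 9 genes lay outside the range of the other 17 hippocampal libraries. The share of all genes outside that range was not counted, so this describes the library and is no trait of these 9 genes. Its Adnp row held 1 count, its Adnp2 level was 15.9 CPM against 30.8 to 43.4 CPM elsewhere, and its Mad2l2 level was 19.3 CPM against 6.74 to 9.26 CPM. Hippocampal results are given without this library, and each gene's value with it follows.

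Pogz is on chr3:94837567-94883567 of GRCm38, plus strand, with 19 exons in the table. In the cerebellum the 6 control libraries held 89.6, 93.1 and 129.6 CPM as lowest, median and highest, the cKO+/- libraries 66.4, 80.1 and 81.5 CPM, and the cKO-/- libraries 57.0, 65.3 and 74.0 CPM. Every control library was above every mutant library, and the cKO+/- and cKO-/- libraries overlapped. With 6 libraries a genotype, the mean ± SD was 99.6 ± 15.2 CPM in controls, 77.7 ± 5.78 CPM in cKO+/- and 65.8 ± 7.34 CPM in cKO-/- mice. The control library of Sample_1129 was the highest by far, and the next control was at 101 CPM.

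In the hippocampus the 6 controls held 89.0, 90.7 and 92.8 CPM as lowest, median and highest, and the 6 cKO+/- libraries 74.0, 75.6 and 80.2 CPM. The 5 cKO-/- libraries held 58.7, 59.7, 60.7, 61.8 and 67.7 CPM, and Sample_1160 was at 53.6 CPM. Here the 3 genotypes formed 3 separate ranges, with or without Sample_1160. The spread of Pogz around its genotype and sex means was small in this tissue, at an SD of 0.0521 on the log2 scale against a median of 0.139 over all genes tested, and 0.168 against 0.185 in the cerebellum.

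Pogz RNA fell in both tissues. Per Pogz allele lost, the fold change was -0.30 on the log2 scale (SE 0.0457, adjusted p = 0.000356) in the cerebellum and -0.28 (SE 0.0205, adjusted p = 1.79e-07) in the hippocampus, by edgeR's quasi-likelihood test with Benjamini-Hochberg adjustment over all genes tested. In cKO-/- mice Pogz was at 0.661 of control in the cerebellum and 0.678 in the hippocampus. With Sample_1160 in the fit the hippocampal change per allele was -0.30 (SE 0.0273, adjusted p = 4.4e-06). The change per allele did not differ detectably between the tissues, the difference being 0.01 on the log2 scale (SE 0.0507, adjusted p = 0.972).

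Cre removes exons 13 to 19, which in the table's annotation (chr3:94876636-94883567 of GRCm38) hold 5548 of the 7640 exonic bases, 72.6%, and 4907 of them are in the last exon alone. One count stands for the whole gene, so RNA of these exons cannot be told apart from RNA of the remaining ones, nor RNA of recombined cells from that of cells that kept Pogz.

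The loss of 1 allele was tested separately. In the hippocampus cKO+/- mice were at 0.841 of control for Pogz, a log2 change of -0.25 (SE 0.0387, adjusted p = 0.0194). In this comparison 5 of 14339 genes were called, 0.0349%, Pogz among them. The call was lost when any of 7 animals was left out (Sample_933, Sample_938, Sample_1129, Sample_1170, Sample_1189, Sample_1190 or Sample_1192), with adjusted p up to 0.0789, and with all 18 libraries (adjusted p = 0.350), while the estimates over the left-out animals stayed between -0.27 and -0.24. In the cerebellum cKO+/- mice were at 0.781 of control (log2 change -0.36, SE 0.0930, adjusted p = 0.153), where 0.342% of genes were called and Pogz was not. DESeq2 called Pogz there (adjusted p = 0.0393). From cKO+/- to cKO-/- the log2 difference of Pogz was -0.24 (SE 0.0933) in the cerebellum and -0.31 (SE 0.0413) in the hippocampus.

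**Figure D2:**
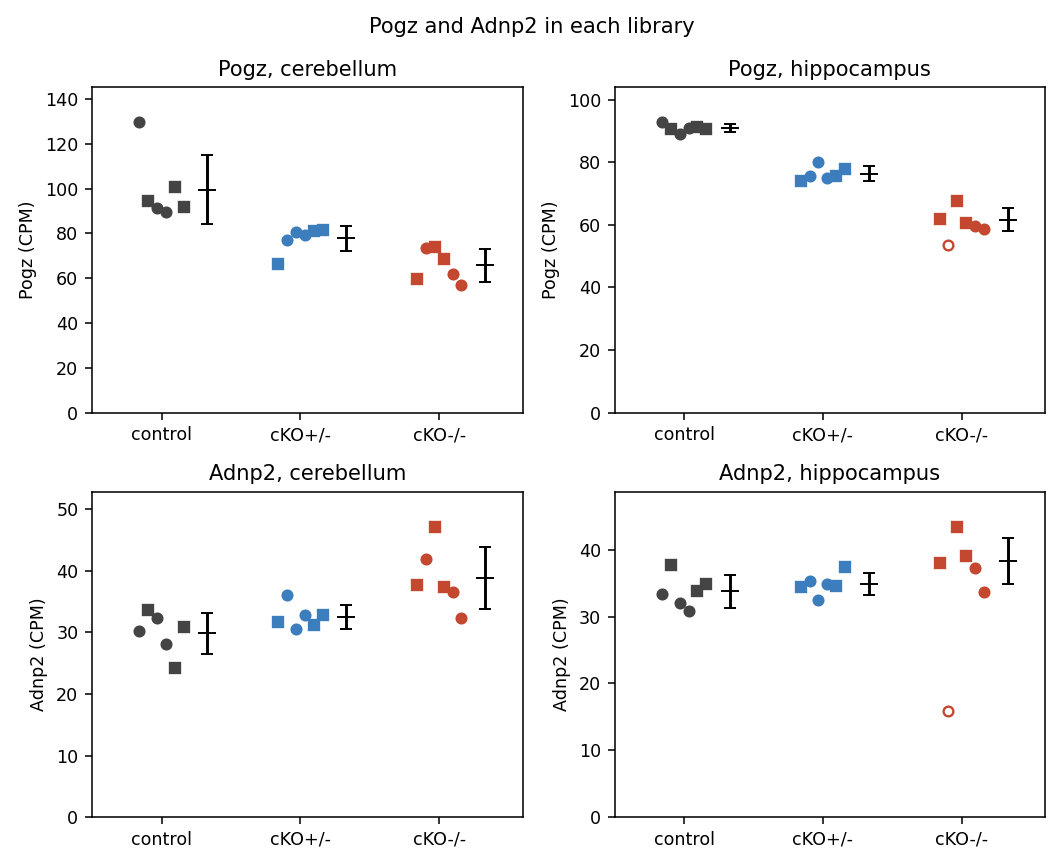
CPM of Pogz and Adnp2 in each library by genotype, with the cerebellum at left and the hippocampus at right; circles are females, squares males, bars the mean and SD, and the open circle is Sample_1160, left out of the bar. Control and cKO-/- libraries do not overlap for Pogz in either tissue, and for Adnp2 the cerebellar cKO-/- libraries reach from 32.3 to 47.1 CPM.

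Of the 9 genes, 2 were called per allele lost in the cerebellum, Pogz and Adnp2, where 13.7% of all 14027 genes tested were called. In the hippocampus 1 of the 9, Pogz, was called, where 4.44% of 14339 genes were called, and with Sample_1160 in the fit 1 of 9 against 1.72%. The counts were the same for cKO-/- against control, 2 in the cerebellum and 1 in the hippocampus, beside 12.7% and 4.87% of all genes. Control and cKO-/- libraries did not overlap for 1 member in each tissue, Pogz, and for 4.58% and 3.65% of all genes. Pogz is the deleted gene, so its place in these counts could be foreseen. Of the 8 partners alone, 1 was called per allele lost in the cerebellum, Adnp2, and 0 in the hippocampus by edgeR. The 8 partners had a median change per allele of 0.05 on the log2 scale in the cerebellum and 0.03 in the hippocampus, against 0.0009 and 0.0017 for all genes tested.

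**Figure D3:**
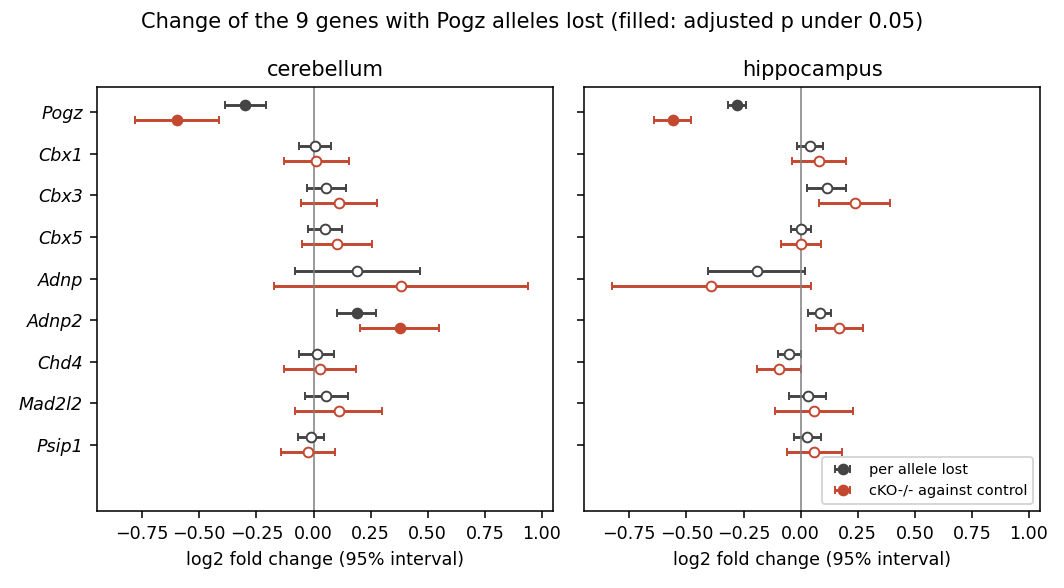
Log2 fold change of each of the 9 genes per Pogz allele lost (grey) and in cKO-/- against control (red), with 95% intervals, in the cerebellum (left) and the hippocampus without Sample_1160 (right); filled points passed an adjusted p of 0.05. Pogz is filled at left and right, Adnp2 only at left, and the interval of Adnp is the widest in both panels.

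The HP1 genes showed no called change. Cbx1 encodes HP1β and Cbx5 HP1α. In the cerebellum Cbx1 held 28.2, 33.8 and 38.3 CPM in controls as lowest, median and highest, 31.0, 34.1 and 38.3 in cKO+/- and 31.4, 34.0 and 35.9 in cKO-/-. The groups overlapped throughout, and the 95% interval of the change in cKO-/- ran from -8.69% to 11.3%. In the hippocampus the controls held 18.5, 21.1 and 22.2 CPM of Cbx1 and the 5 cKO-/- libraries 19.8 to 23.4 CPM, and the interval ran from -2.56% to 14.8%. With Sample_1160, at 11.4 CPM, the log2 difference of Cbx1 in cKO-/- went from 0.08 to -0.04 (SE 0.128, adjusted p = 0.870).

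Cbx5 was the most abundant HP1 gene in CPM. The 6 control cerebella held 173, 214 and 222 CPM as lowest, median and highest and the cKO-/- cerebella 188, 224 and 245 CPM, with an interval of -3.49% to 19.3%. In the hippocampus controls held 233, 262 and 270.3 CPM and the 5 cKO-/- libraries 245 to 268 CPM, with an interval of -5.74% to 6.34%. Sample_1160 was at 202 CPM, and with it the log2 difference was -0.04 (SE 0.0616, adjusted p = 0.707). Neither interval reaches down to the loss measured for Pogz.

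Cbx3 encodes HP1γ. The 6 control hippocampi held 9.76, 10.5 and 10.9 CPM and the cKO+/- hippocampi 9.76, 9.94 and 10.9 CPM. The 5 cKO-/- libraries held 10.2, 10.5, 12.8, 13.8 and 13.9 CPM, so that 3 of them, Sample_1371, Sample_1379 and Sample_1385, were above every control and 2, Sample_936 and Sample_1219, were among the controls. The mean of cKO-/- was 12.2 ± 1.78 CPM (SD, n = 5) and that of controls 10.4 ± 0.467 (SD, n = 6). The log2 difference was 0.24 (SE 0.0793, adjusted p = 0.0957), not called, and per allele 0.11 (SE 0.0431, adjusted p = 0.148). Sample_1160 held 8.34 CPM, below every control, and with it the log2 difference in cKO-/- was 0.15 (SE 0.110, adjusted p = 0.455) and that per allele 0.08 (SE 0.0546, adjusted p = 0.449).

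Whether Cbx3 passed turned on single animals. It passed without Sample_936 (log2 difference 0.28, adjusted p = 0.0346) or without Sample_1219 (0.29, adjusted p = 0.0407), and fell to 0.18 (adjusted p = 0.279) without Sample_1371. The 3 high animals also carry the highest numbers among the cKO-/- mice, and the controls all come from a middle range of numbers. With a covariate for animals numbered outside that range the hippocampal change per allele was 0.07 (SE 0.0583, adjusted p = 0.951). In the cerebellum Cbx3 held 12.01, 14.0 and 15.9 CPM in controls and 13.8, 14.4 and 18.3 CPM in cKO-/-, where Sample_1371 was again the highest, and the log2 difference was 0.11 (SE 0.0847, adjusted p = 0.394). The Cbx3 values rest on 240 to 479 counts a library outside Sample_1160, and how reads that fit several places were counted is not given in the sources used here.

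**Figure D4:**
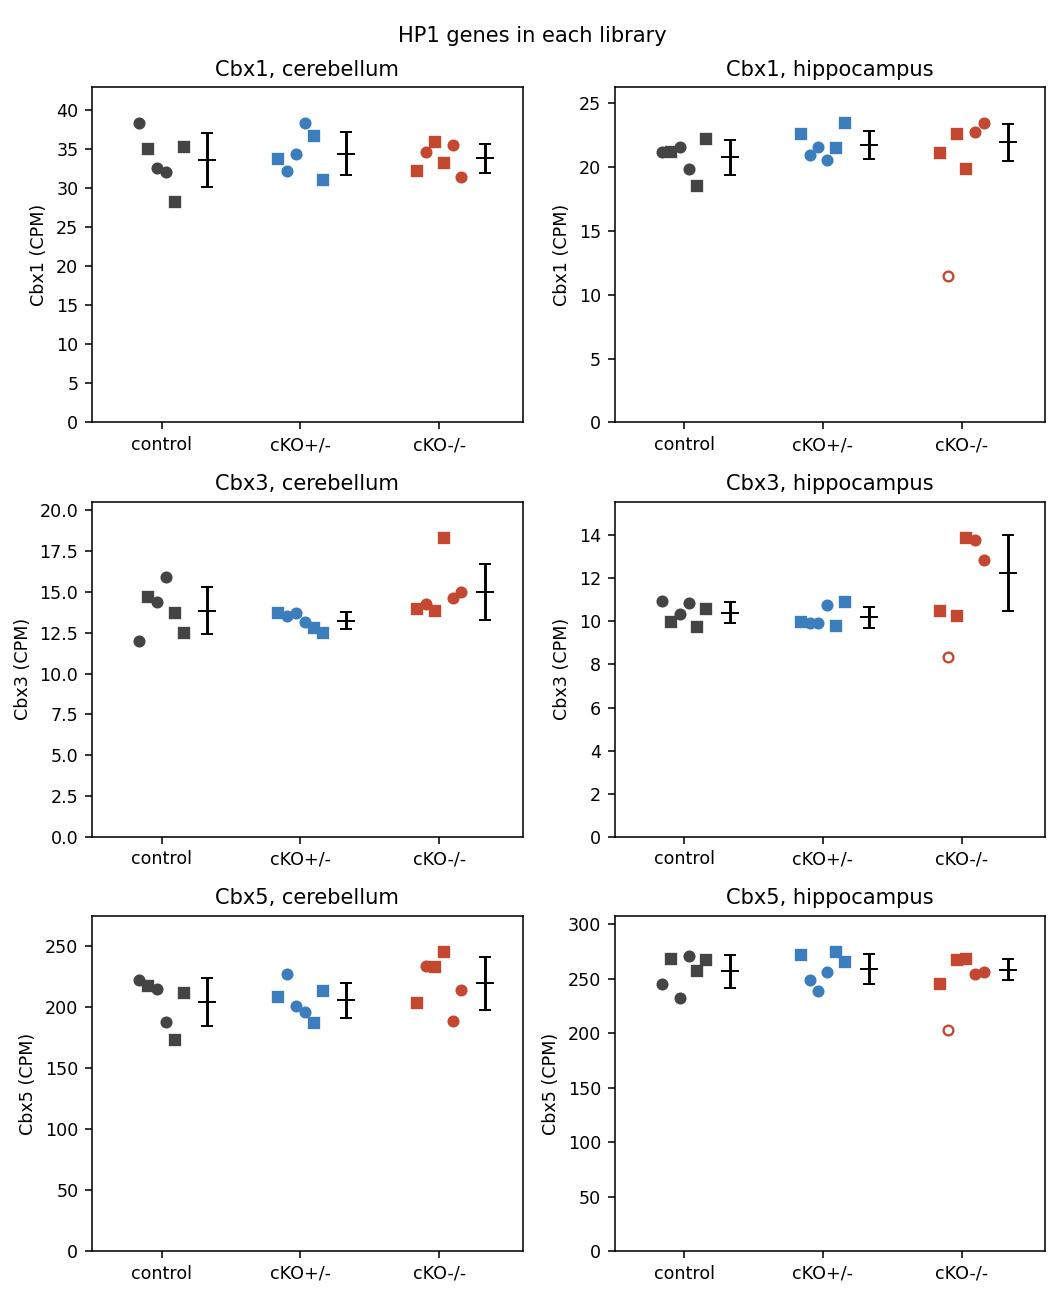
CPM of Cbx1, Cbx3 and Cbx5 in each library by genotype, cerebellum at left and hippocampus at right; circles are females, squares males, bars the mean and SD, and the open circle is Sample_1160, left out of the bar. For Cbx3 in the hippocampus 3 of 5 cKO-/- libraries lie at 12.8 to 13.9 CPM, above the 6 controls at 9.76 to 10.9 CPM, and for Cbx1 and Cbx5 the groups overlap.

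Adnp2 rose in the cerebellum. The 6 control cerebella held 24.3, 30.5 and 33.6 CPM as lowest, median and highest, the cKO+/- cerebella 30.6, 32.2 and 36.0 CPM, and the cKO-/- cerebella 32.3, 37.6 and 47.1 CPM. Of the 6 cKO-/- libraries 5 were above the highest control, and Sample_1385, the lowest, was within the control range. The means were 29.9 ± 3.32 CPM in controls (SD, n = 6) and 38.8 ± 5.08 in cKO-/- (SD, n = 6).

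The change of Adnp2 per allele lost in the cerebellum was 0.19 on the log2 scale (SE 0.0438, adjusted p = 0.00973), and in cKO-/- it was 1.30 times control (log2 0.38, SE 0.0888, adjusted p = 0.0119; 95% interval 15.1% to 46.5% higher). The call held in all 18 fits that left out 1 animal, with the change per allele between 0.15 and 0.21, and with the covariate for animal numbers (0.23, adjusted p = 0.0188). In cKO+/- the difference was 0.12 (SE 0.0888, adjusted p = 0.592) and not called. From cKO+/- to cKO-/-, both with Cre, the log2 difference of Adnp2 was 0.25 (SE 0.0886).

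In the hippocampus Adnp2 moved less. Controls held 30.8, 33.6 and 37.7 CPM, and the 5 cKO-/- libraries 33.7, 37.3, 37.998, 39.1 and 43.4 CPM, so the groups overlapped. The change per allele was 0.08 (SE 0.0262, adjusted p = 0.0803), not called by edgeR and called by DESeq2 (adjusted p = 0.0426). With Sample_1160, at 15.9 CPM, the estimate fell to 0.01 (SE 0.0725, adjusted p = 0.950). The difference between the tissues in the change per allele was -0.12 (SE 0.0536, adjusted p = 0.304) and did not pass, where 1.63% of 14870 genes did and 0 of the 9 members did by edgeR, with 2 of them at an unadjusted p under 0.05.

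Adnp, on the minus strand of chr2:168180965-168207112 of GRCm38, gave the least precise values. Its row held 0.640, 2.76 and 4.04 CPM in control cerebella as lowest, median and highest and 2.65, 3.23 and 4.26 CPM in cKO-/- cerebella, and the low control was Sample_1190 with 20 counts. In the hippocampus the controls held 1.97, 2.73 and 3.28 CPM and the 5 cKO-/- libraries 1.45, 1.58, 1.61, 2.24 and 3.71 CPM. The groups overlapped in both tissues, with log2 changes per allele of 0.19 (SE 0.139, adjusted p = 0.368) in the cerebellum and -0.19 (SE 0.108, adjusted p = 0.334) in the hippocampus. The 95% interval for cKO-/- ran from -11.3% to 91.5% in the cerebellum and from -43.6% to 3.13% in the hippocampus, so a change of Adnp as large as that of Adnp2 was not detectable here. Without Sample_1190 the cerebellar log2 difference in cKO-/- fell to 0.16. With Sample_1160 and its 1 count the hippocampal difference went from -0.39 to -0.70 (SE 0.441, adjusted p = 0.400).

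Chd4, the remodelling ATPase shared by NuRD and the ADNP complex, was among the best measured, with 5610 to 8169 counts a library in the cerebellum. Controls held 219.7, 263 and 296 CPM there and cKO-/- 234, 258 and 315 CPM, the highest being Sample_1160, and the interval of the change was -8.54% to 13.6%. In the hippocampus Chd4 was at 251 ± 17.6 CPM (mean ± SD) in 6 controls, 229 ± 10.4 CPM in 6 cKO+/- and 236 ± 9.15 CPM in 5 cKO-/- libraries. The hippocampal difference of cKO+/- was -0.13 on the log2 scale (SE 0.0468, adjusted p = 0.333) and that of cKO-/- -0.09 (SE 0.0493, adjusted p = 0.284), neither called. With Sample_1160, at 185 CPM, the value of cKO-/- was -0.14 (SE 0.0661, adjusted p = 0.297).

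Mad2l2 was the second scarcest row, with 174 to 300 counts in the cerebellum. It held 7.83 ± 1.10 CPM in control cerebella (SD, n = 6) and 8.45 ± 0.453 in cKO-/- (SD, n = 6), and 7.996 ± 0.883 (SD, n = 6) and 8.27 ± 0.735 (SD, n = 5) in the hippocampus. The groups overlapped, and the intervals of the change in cKO-/- were -5.41% to 23.3% and -7.44% to 17.2%. The hippocampal value turned on Sample_1160, at 19.3 CPM: with it the log2 difference in cKO-/- was 0.33 (SE 0.181, adjusted p = 0.352), against 0.06 without it.

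Psip1 was flat across genotypes. In the cerebellum its mean ± SD over 6 libraries a genotype was 261 ± 8.36 CPM in controls, 257 ± 12.6 CPM in cKO+/- and 256.4 ± 22.4 CPM in cKO-/- mice, with an interval of -9.46% to 6.86% for cKO-/-. The hippocampal mean ± SD was 196 ± 12.3 CPM in 6 controls, 198 ± 14.2 CPM in 6 cKO+/- and 205 ± 15.1 CPM in 5 cKO-/- libraries, with an interval of -4.15% to 13.5%. With Sample_1160, at 243 CPM, the log2 difference went from 0.06 to 0.11 (SE 0.0723, adjusted p = 0.435).

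No member's change per allele differed between males and females by edgeR: 0 of 9 were called in either tissue, with 0 of 9 at an unadjusted p under 0.05, and 0% of all genes were called in the cerebellum and 0% in the hippocampus, where 557 and 770 genes had an unadjusted p under 0.05. For Pogz the male minus female difference was 0.09 (SE 0.0911) in the cerebellum and 0.04 (SE 0.0410) in the hippocampus on the log2 scale. With 3 mice of each sex and genotype these differences are loosely bounded.

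Levels per kilobase of exon (RPKM) were compared in the 12 control libraries, normalized together. In the cerebellum the order was Psip1 (65.9 ± 2.21 RPKM), Chd4 (39.1 ± 4.90), Cbx1 (25.6 ± 2.75), Cbx5 (22.1 ± 2.23), Pogz (12.6 ± 1.94), Cbx3 (7.45 ± 0.770), Adnp2 (6.92 ± 0.805), Mad2l2 (5.21 ± 0.702) and Adnp (0.496 ± 0.219), each as mean ± SD RPKM with n = 6. The control values of Cbx1 and Cbx5 overlapped in that order, as did those of Cbx3 and Adnp2 and those of Adnp2 and Mad2l2. In the hippocampus Psip1 (52.9 ± 3.45 RPKM) and Chd4 (40.3 ± 2.90) were again on top, Cbx5 (29.5 ± 1.85) came before Cbx1 (16.8 ± 1.08), then Pogz (12.3 ± 0.176) and Adnp2 (8.33 ± 0.628), and Cbx3 (5.96 ± 0.248) and Mad2l2 (5.67 ± 0.608) did not differ beyond their spread. Counted over its 714 own bases alone, Adnp would be at 3.56 ± 1.57 RPKM in the cerebellum and 3.90 ± 0.701 in the hippocampus (SD, n = 6), still the lowest mean of the 9. The level of Cbx3 was not adjusted for its windows found elsewhere, so its rank is uncertain.

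The HP1 genes divided between the tissues. Of the 9 members 5 differed between control hippocampus and control cerebellum, against 71.9% of 14224 genes tested, so a call in this comparison is common. Cbx1 was lower in the hippocampus by a log2 difference of -0.61 (SE 0.0790, adjusted p = 1.1e-05) and Cbx3 by -0.32 (SE 0.0770, adjusted p = 0.00195), while Cbx5 was higher by 0.42 (SE 0.0744, adjusted p = 0.000195). The lowest control cerebellum had 27.0 CPM of Cbx1, above the highest control hippocampus at 23.1 CPM, and for Cbx5 the highest cerebellum at 216 CPM was below the lowest hippocampus at 239 CPM.

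Adnp2 was higher in the hippocampus by 0.26 (SE 0.0824, adjusted p = 0.0108) and Psip1 lower by a log2 difference of -0.32 (SE 0.0548, adjusted p = 0.000144). Pogz did not differ detectably (-0.04, SE 0.0823, adjusted p = 0.679; 95% interval -13.0% to 8.80%), nor did Adnp, Chd4 or Mad2l2. The control cerebella spread more for Pogz, from 86.5 to 126 CPM, than the control hippocampi, from 91.4 to 95.1 CPM. With the animal as a block, both tissues coming from the same mice, the same 5 genes were called and the value for Cbx1 was -0.60 (SE 0.0573, adjusted p = 1.27e-05).

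**Figure D5:**
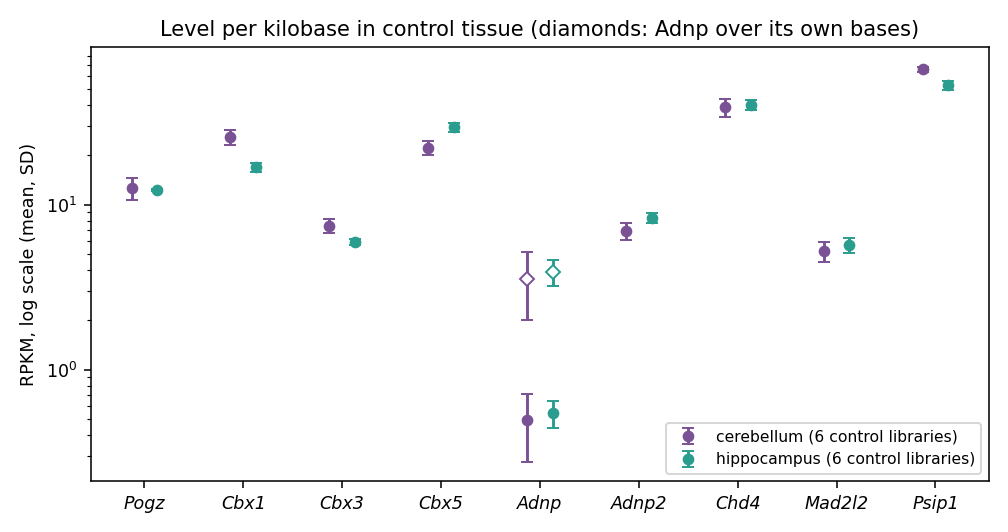
Mean and SD of the level per kilobase of exon (RPKM, log axis) of the 9 genes in the 6 control cerebella (purple) and the 6 control hippocampi (green); open diamonds give Adnp over the 714 bases it does not share. Psip1 and Chd4 lie highest in both tissues, and Cbx1 and Cbx5 trade places between cerebellum and hippocampus.

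Around the 9 genes, 7 lists of related proteins and the genes next to Pogz were counted in the same fits. Of the 16 HP1-bound and H3K9 methylation proteins, all tested, 1 rose and 2 fell per allele in the cerebellum and 1 rose in the hippocampus, with medians of -0.05 and -0.02 on the log2 scale. The riser was the same gene, Atf7ip, the nuclear partner of the H3K9 methyltransferase SETDB1, at 76.5, 96.8 and 120 CPM in control, cKO+/- and cKO-/- cerebella and 56.3, 61.6 and 80.1 CPM in hippocampi. Its change per allele was 0.33 (SE 0.0764, adjusted p = 0.00973) and 0.24 (SE 0.0332, adjusted p = 0.000252). The 2 that fell in the cerebellum were Suv420h2, an H4K20 methyltransferase recruited by HP1 (-0.21, SE 0.0676, adjusted p = 0.0486), and Incenp of the chromosomal passenger complex (-0.12, SE 0.0371, adjusted p = 0.0353).

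Of 14 NuRD subunits 1 rose in the cerebellum, Chd3, the CHD4-related ATPase (0.21, SE 0.0469, adjusted p = 0.00848), and 0 were called in the hippocampus by edgeR. The list medians per allele were 0.04 and -0.02 on the log2 scale. Of the 5 Polycomb chromobox genes, which read H3K27 methylation and not H3K9, Cbx7 fell in the cerebellum (-0.16, SE 0.0314, adjusted p = 0.00321) and 0 were called in the hippocampus, with medians of -0.04 and -0.04. Pogk, another gene derived from a pogo transposase, rose in the cerebellum (0.16, SE 0.0472, adjusted p = 0.0287), the only call among 7 tested genes of its list in that tissue, against 0 of 7 in the hippocampus, with medians of -0.04 and 0.03.

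Of the LEDGF family and partners, 1 of 7 fell in the cerebellum, Hdgfrp2, a paralogue of Psip1 (-0.16, SE 0.0483, adjusted p = 0.0334), and 1 of 8 in the hippocampus, Med1 of the Mediator complex (-0.07, SE 0.0176, adjusted p = 0.0264), with medians of -0.04 and -0.05. The 8 BAF subunits gave 0 calls in the cerebellum and 1 fall in the hippocampus, Arid1b (-0.10, SE 0.0252, adjusted p = 0.0247), with medians of -0.03 and -0.04. The 7 tested partners of MAD2L2 gave 0 calls in either tissue, with medians of -0.05 and -0.03. Together these lists and the Pogz neighbours held 8 calls among 75 tested genes in the cerebellum (3 up, 5 down) and 3 among 76 in the hippocampus (1 up, 2 down), in each tissue a share somewhat below the 13.7% and 4.44% of all genes.

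Within 250 kb of Pogz 11 of 15 annotated genes were tested in each tissue. In the cerebellum 10 of their 11 estimates per allele were below 0 and in the hippocampus 9 of 11, with medians of -0.05 and -0.05 on the log2 scale. Only Scnm1, a splicing factor gene, passed, in the cerebellum (-0.17, SE 0.0471, adjusted p = 0.0274), and its hippocampal value was -0.06 (SE 0.0636, adjusted p = 0.608). The fall of Pogz itself was larger than any of these estimates. How many of all genes had an estimate below 0 was not counted, so the counts of signs near Pogz have no background beside them. Medians of the lists of related proteins above ran from -0.05 to 0.04 in the cerebellum and from -0.05 to 0.03 in the hippocampus.

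The genes whose levels were most like those of Pogz over the 18 cerebellar and the 17 hippocampal libraries, out of 13586 compared, were Per3 (Pearson r = 0.873 and 0.864), Tor1b (0.847 and 0.847), Fbxo27 (0.920 and 0.842), Ncapd2 (0.865 and 0.840) and Hnrnpm (0.893 and 0.835). Each r is a description over libraries that share the genotype steps of Pogz, sexes and depth. Per3 is a circadian clock gene, Hnrnpm encodes a splicing regulator and Ncapd2 a condensin subunit. These genes were chosen for likeness to Pogz, so a fall per allele lost follows in part from the choice. Per allele lost, the log2 changes in cerebellum and hippocampus were -0.31 and -0.38 for Per3 and -0.14 and -0.09 for Tor1b. They were -0.25 and -0.18 for Fbxo27, -0.18 and -0.13 for Ncapd2, and -0.23 and -0.12 for Hnrnpm.

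For Adnp2 the most similar gene was Atf7ip, at r = 0.883 in the cerebellum and 0.804 in the hippocampus. Cbx5 was most like Kcnma1, a potassium channel gene (0.792 and 0.868), and Adnp most like Irs2 (0.856 and 0.848). Psip1 went with Syncrip (0.808 and 0.777), Chd4 with Ago1 (0.772 and 0.769), Cbx3 with Selt (0.761 and 0.789), Mad2l2 with Tmed3 (0.708 and 0.719) and Cbx1 with D030028A08Rik (0.649 and 0.626). Of these 8 genes, each chosen for likeness to a member, only Atf7ip was called per allele lost, and no other passed in either tissue.

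Cell type markers moved with genotype beside these genes. In the cerebellum 12 of 47 tested markers rose and 1 fell per allele lost, a larger share than the 13.7% of all genes. The markers were chosen with earlier results of these data known, so this share only describes the lists. The 5 meningeal fibroblast markers summed to 87.2, 99.8 and 120 CPM as lowest, median and highest in control cerebella and to 108, 193 and 224 CPM in cKO-/- cerebella, and 4 of them rose. The 5 astrocyte markers summed to 2436 to 2911 CPM in controls and 2762 to 3805 CPM in cKO-/-, and 3 rose; of the 5 microglia markers, at 74.7 to 84.4 and 73.0 to 138 CPM, 2 rose. In bulk tissue a change in the share of a cell type cannot be told apart from a change of RNA per cell, and the part of these markers in the values of Adnp2 was not tested.

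The other lists had fewer called genes in the cerebellum, except the 2 tested hippocampus markers. Neuron markers summed to 4505 to 5898 CPM in controls and 3823 to 5440 CPM in cKO-/- (0 of 4 called), oligodendrocyte markers to 3556 to 5641 and 3766 to 8743 CPM (0 of 5, with a median of 0.22 per allele on the log2 scale against 0.17 for astrocyte markers), and endothelial markers to 164 to 238 and 159.7 to 221 CPM (1 of 5 fell). Midbrain and brainstem markers summed to 17.6 to 33.3 and 21.5 to 58.8 CPM (1 of 4 tested rose), and cerebellum and hippocampus markers gave 0 of 7 and 2 of 2 tested genes that rose. Choroid plexus markers were high in single libraries, above 500 CPM in 3 mutant cerebella (Sample_933, Sample_936 and Sample_1433) against 20.8 to 27.3 CPM in controls, where Folr1 was at 0, and 0 of 5 tested choroid plexus markers passed by edgeR. Without those 3 libraries Pogz was at -0.29 (SE 0.0475, adjusted p = 0.00146) and Adnp2 at 0.19 (SE 0.0490, adjusted p = 0.0224) per allele.

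In the hippocampus 4 of 47 tested markers rose and 1 fell per allele lost, also a larger share than the 4.44% of all genes. This share too only describes lists chosen with earlier results known. The median of the meningeal fibroblast markers was 0.50 per allele on the log2 scale here and 0.34 in the cerebellum. Meningeal fibroblast markers summed to 30.2 to 103 CPM in controls and 60.2 to 172 CPM in cKO-/- (1 of 5 rose), astrocyte markers to 1352 to 1705 and 1416 to 1923 CPM (1 of 5 rose), and endothelial markers to 97.0 to 123 and 111 to 176 CPM (1 of 5 rose). Of the hippocampus markers 1 of 7 fell and of the neuron markers 1 of 4 rose, while microglia, oligodendrocyte, choroid plexus, cerebellum and brainstem markers gave 0 calls by edgeR. Without the 5 hippocampal libraries above 500 CPM of choroid plexus markers Pogz was at -0.29 (SE 0.0267, adjusted p = 0.000103) and Cbx3 at 0.14 (SE 0.0572, adjusted p = 0.295) per allele.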

How the data were processed

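The authors made TruSeq poly(A) libraries, sequenced 43-base paired-end reads and deposited raw counts per gene from STAR (250a per the labels). They name mm9, but the table coordinates lie on GRCm38. How multiply mapped reads, shared bases and strand were treated is not given in the sources used here. Deposited counts were tested in R 4.3.3 with edgeR 4.0.16 (quasi-likelihood F-test, TMM) for genes above 1 CPM in at least 6 libraries of a tissue, with sex and the number of Pogz alleles lost, or genotype as a factor, and Benjamini-Hochberg adjustment over all genes tested. A call is an adjusted p under 0.05. The hippocampal fits used 17 libraries, without Sample_1160: the study excluded an outlier library that the labels do not name, and this one stood apart here. The 95% intervals are estimate ± 1.96 SE. DESeq2 1.42.0 and the other alternatives are in the closing section. Each animal gave both tissues; tissue comparisons were fitted without a block, and with the animal as a block as an alternative. Over 17 animals the deviations from group means correlated between tissues at -0.148 to 0.435 (median 0.217, 15 over 0.1). The fit was tested on simulated data. Members, lists and markers were chosen with earlier results of these data known. Named besides the members are the genes most like each (the lower of 2 Pearson correlations of log2 CPM) and called genes of the lists, at most 4 a list; no per-sample column was left unmapped (0). Library totals bound precision, and Adnp, with the fewest counts of the 9 genes, has the widest intervals.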

Additional observations from a re-analysis of the deposited data

Results flagged for a closer look

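In 4 of the 54 groups of libraries looked at (9 genes, 3 genotypes, 2 tissues) the end library lay farther from its neighbour than Dixon's 95% limit allows, which chance does in about 1 of 20 groups. For Pogz, the control cerebellum of Sample_1129 was at 129.6 CPM, with the next at 100.7 CPM, and the cKO+/- cerebellum of Sample_933 was at 66.36 CPM, with the next at 77.27 CPM. The cKO-/- cerebellum of Sample_1371 held 18.33 CPM of Cbx3, with the next at 14.98 CPM, and that of Sample_1160 held 315.1 CPM of Chd4, with the next at 261.0 CPM. Sample_1160 is the animal whose hippocampal library stood apart, and its cerebellar library is in every main cerebellar fit. In the fit that left it out, the log2 difference of Chd4 in cKO-/- cerebella was -0.02. Sample_933 is also among the cerebella rich in choroid plexus markers.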

How the results depend on the processing

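Of 1422 recomputed values of the 9 genes, 1407 stayed on the same side of the threshold, 9 were no longer called, 6 were newly called and 0 called values reversed. The 2 calls in the cerebellum, per allele and in cKO-/-, and the 5 between control tissues held under every alternative run. DESeq2 called 1 gene in cKO+/- cerebella (Pogz; 0 by edgeR) and 2 in the hippocampus, per allele and in cKO-/- (Pogz and Adnp2; 1 by edgeR). For cKO+/- hippocampi the count went from 1 to 0 with all 18 libraries and, in an alternative chosen after seeing the data, to 0 without libraries rich in choroid plexus markers. Leaving out 1 animal gave 1 to 3 genes in cKO-/- hippocampi (3 without Sample_936, 2 without Sample_1219) and 0 to 1 in cKO+/- hippocampi. With the animal as a replicate block 5 genes were called between control tissues and 0 for the difference in allele effect between tissues, as without the block. Genotypes could not be paired, since each animal has 1 genotype. The other settings were relative log expression factors, no filter, no sex term, all genotypes in the tissue comparison, a covariate for animal numbers, thinned libraries and bias-adjusted quasi-likelihood. Adnp had the fewest counts and the largest spread of the 9 genes in both tissues.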
